A study of Mus musculus with 4 samples.

Results

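Complement components and regulators were followed in RNA from heart muscle cells of sham-operated and pressure-overloaded mice. They were the rows whose gene symbol was C1qa, C1qb, C1qc, C3, C4b, Cfb, Cfd, Serping1 or Cd59a, 9 of the 22322 genes in the deposited tables. Each symbol was found once in every library. The sham group held 2 libraries and the group with transverse aortic constriction (TAC, a band that narrows the aorta and loads the left ventricle) held 2 libraries, each prepared from cardiomyocytes. Per the methods of the study, male mice were operated at 2 months of age, cells were released from the heart by Langendorff perfusion, and each library took a share of the myocytes of 1 heart. The methods place echocardiography 14 weeks after surgery but call the mice used for isolation 14 weeks old, so the time from surgery to isolation is uncertain. The sources used here name no strain and no genetic change for either group. Libraries are numbered by replicate, and where 2 values follow a group the first is replicate 1.

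Complement is a chain of plasma proteins that tags and lyses targets. In the classical pathway C1q binds a target and starts cleavage of C4 and C2, in the alternative pathway factor B and factor D work on C3, and every route meets at C3, the most abundant component. The C1 inhibitor encoded by Serping1 stops the first proteases, and CD59, a surface protein held by a lipid anchor, blocks the last step of pore assembly. In the heart C1q is made mainly by macrophages, while C3, C4 and the C1 inhibitor are also made by fibroblasts and other stromal cells.

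The libraries held 24237777 to 32118323 expected counts. Cardiomyocyte markers dominated, with Myh6, the alpha-myosin heavy chain, at a mean deposited FPKM (fragments scaled by transcript length and library size) of 6684. RNA of other cell types was present at lower levels, and 2 libraries stood apart in it. The summed level of 15 macrophage markers was 144 and 72.2 CPM (counts scaled by TMM library size) in sham 1 and sham 2, against 38.6 and 71.9 CPM in TAC 1 and TAC 2. The summed level of 15 fibroblast markers was 596 and 412 CPM in the sham libraries and 244 and 330 CPM in the TAC libraries. Thus sham 1 was the highest and TAC 1 the lowest library for both lists, and sham 2 and TAC 2 stood close to each other for the macrophage list. In bulk RNA, fewer cells of a type and less RNA per cell cannot be told apart.

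In GRCm38 (mm10), C1qb (chromosome 4, 136880129 to 136886187), C1qc (136889804 to 136893065) and C1qa (136895917 to 136898803) lie side by side on the minus strand, with 3616 and 2851 bases between them. C4b (chromosome 17, 34728380 to 34743882) and Cfb (34856374 to 34862518) lie on the same chromosome as C3 (57203970 to 57228136). Serping1 (84765387 to 84775444) and Cd59a (104095801 to 104115354, next to its relative Cd59b) are on chromosome 2, and Cfd (79890853 to 79892655) is on chromosome 10. Each gene is annotated as protein coding. Of the exonic bases of Cfb, 2246 of 2825 are shared with the overlapping gene Gm20547, which had an expected count of 0.45 in sham 2 and of 0 in the other libraries. C4a, the near-identical relative of C4b, was not analysed here. The sources used here do not say how fragments shared by C4b and C4a, by Cd59a and Cd59b or by Cfb and Gm20547 were divided.

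RefSeq promoters (GRCm38.p6, 250 bases before to 50 bases after the start of a gene) were matched for 5 of the 9 genes, namely C1qb, C1qc, C3, Cfd and Cd59a. They were searched on both strands for the core of the macrophage factor PU.1 (AGGAAGT), the STAT element (TTCNNNGAA) and the interferon-stimulated core (TTTC, any 2 bases, then TTTC). The C1q chains were measured together in every library, and the matches in their promoters are shown with the matched letters in capitals, 5′ to 3′ on the strand of the gene, from chr4:136886236-136886264 for C1qb and chr4:136893092-136893120 for C1qc.
C1qb: caggacctgaaACTTCCTgagggcagcag
C1qc: ggacggcagacACTTCCTcattttggcac
Both matches are the PU.1 core read on the opposite strand, 53 bases before the RefSeq start of C1qb (136886200) and 195 bases before that of C1qc (136892914), which lies inside the GENCODE gene given above. This core was found in 2 of the 5 promoters and in 9.35% of 32851 promoters of the same length. The interferon-stimulated core, in 3.44% of all promoters, was found in that of Cd59a alone, and the STAT element, in 8.3%, in none of the 5. No match overlapped another. A match describes letters only.

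The level per length of transcript was compared first. Cd59a was the most abundant of the 9 genes, with a deposited FPKM of 41.1 and 40.4 in the sham libraries and 31.3 and 41.9 in the TAC libraries, above the highest value of any other member. C3 stood at 17.4, 11.9, 3.95 and 7.25 FPKM in the same order of libraries. Serping1 stood at 13.9, 9.13, 4.05 and 7.35 FPKM. C3 was thus above Serping1 in both sham libraries and slightly below it in both TAC libraries, and their ranges overlapped. The 3 C1q chains followed, between 2.46 and 11.4 FPKM over chains and libraries. Their ranges overlapped one another and those of C3 and Serping1. C4b was lower, from 0.37 FPKM in TAC 1 to 1.96 FPKM in sham 1, and did not reach the lowest C1q value. Cfb stood between 0.16 and 0.67 FPKM. Cfd was at or near 0.

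**Figure D1:**
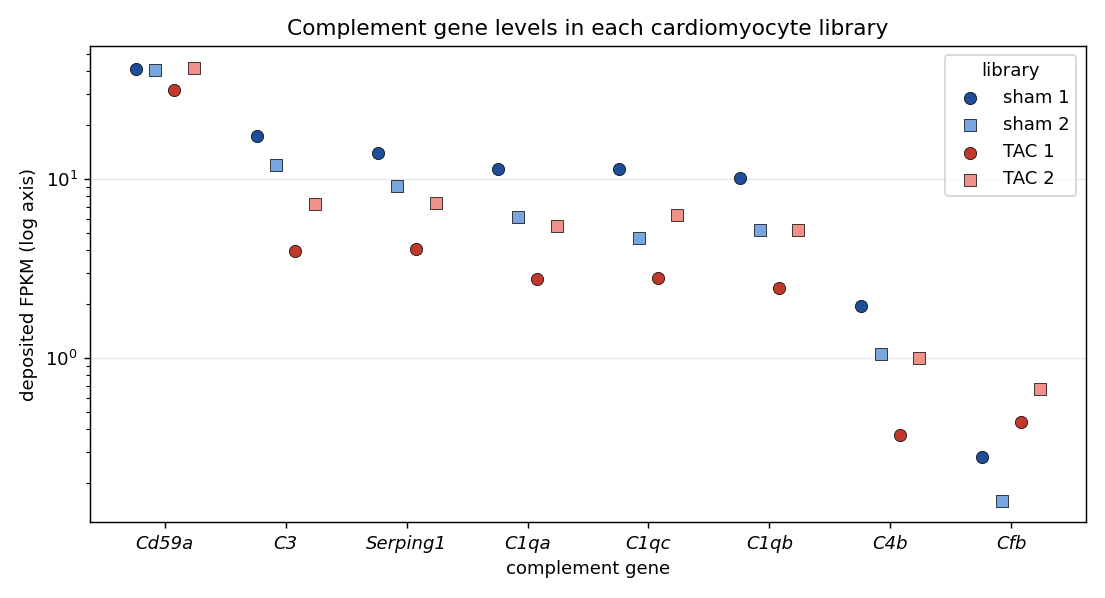
Deposited FPKM (log axis) of 8 complement genes in each of the 2 sham and 2 TAC libraries, ordered by mean level; each point is 1 library, and Cfd, at 0 in 3 libraries, is not drawn. Cd59a sits between 31.3 and 41.9 FPKM in every library, whereas TAC 1 is the lowest library for C3, C4b, Serping1 and the C1q chains.

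The initiators of the classical pathway were examined next. C1q is built from the A, B and C chains encoded by C1qa, C1qb and C1qc. C1qa was at 10.7 and 6.12 CPM in the sham libraries and 3.30 and 5.60 CPM in the TAC libraries, on expected counts of 339, 176, 92 and 137. C1qb was at 10.1, 5.46, 3.08 and 5.56 CPM. C1qc was at 12.5, 5.39, 3.87 and 7.48 CPM. Both TAC libraries lay below both sham libraries for C1qa, though TAC 2 came close to sham 2. For C1qb and C1qc, TAC 2 lay above sham 2 and the groups overlapped. The log2 fold change of TAC against sham was −0.93 ± 0.32 for C1qa (SE, n = 2 each, edgeR adjusted p = 0.122). It was −0.85 ± 0.35 for C1qb (edgeR adjusted p = 0.168). It was −0.67 ± 0.42 for C1qc (edgeR adjusted p = 0.337). None of the chains passed the adjusted threshold of 0.05.

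The chains kept close proportions within a library. The FPKM ratio of C1qa to C1qb was 1.12 and 1.17 in the sham libraries and 1.12 and 1.05 in the TAC libraries, and the 95% exact (Clopper-Pearson) interval of each, which covers counting error only, included 1. The ratio of C1qc to C1qb was 1.13, 0.894, 1.14 and 1.22, again with 1 inside each interval. The ratio of C1qa to C1qc was 0.990, 1.31, 0.982 and 0.865. Only for sham 2 did its interval, 1.05 to 1.64, leave out 1, so C1qc was low relative to C1qa in that library. Summed over the chains, C1q amounted to 33.3 and 17.0 CPM in the sham libraries and 10.3 and 18.6 CPM in the TAC libraries. The sum in TAC 2 was thus between the sham values.

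C4b, the fourth component that C1 cleaves, was at 9.61 and 5.42 CPM in the sham libraries and 2.30 and 5.32 CPM in the TAC libraries. The groups did not overlap, but sham 2 and TAC 2 were nearly equal. Its log2 fold change was −0.998 ± 0.400 (SE, n = 2 each, edgeR adjusted p = 0.162), so that the difference was not called.

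C3, the hub of all pathways, was at 67.2 and 45.8 CPM in the sham libraries and 17.6 and 36.9 CPM in the TAC libraries, on expected counts of 2127, 1319, 491 and 903. Both TAC libraries were below both sham libraries. Its mean was 56.5 ± 15.1 CPM in sham and 27.3 ± 13.7 CPM in TAC (SD, n = 2 each). The log2 fold change of −1.06 ± 0.31 was the lowest among the 9 genes, 2.08 times lower in TAC, but was not called (edgeR adjusted p = 0.0892). With all 4 libraries kept, the adjusted p of C3 was 0.0022 with edgeR and no low-count filter and 0.289 with DESeq2. The study used a cut-off of a fold change over 2, FPKM over 2 and p under 0.05, read here without adjustment and with the mean FPKM of the 4 libraries. Its methods name total counts for scaling the libraries. Under total-count scaling 4 members passed it (C1qa, C1qb, C3 and Serping1), as did 1.3% of all tested genes. With TMM scaling C3 was the 1 member that passed, against 0.824% of genes. The study itself names Serping1 in a network of proteins from its changed genes, drawn with a higher FPKM cut-off.

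The proteases of the alternative pathway were scarce. Cfb, which encodes factor B, had expected counts of 22 and 11.67 in the sham libraries and 20 and 24 in the TAC libraries. Its log2 fold change was 0.59 ± 0.45 (SE, n = 2 each, edgeR adjusted p = 0.423). This direction was opposite to that of C3 and was not called. With 1 library left out the value ran from 0.29 without sham 2 to 1.01 without sham 1, and with limma on log2(FPKM + 0.1) it was 1.04 ± 0.35 (adjusted p = 0.152). Cfd, which encodes factor D (adipsin), a protease known from fat cells, had 0 counts in sham 1, sham 2 and TAC 1, which allows up to 0.0948, 0.104 and 0.108 CPM, and 3 counts in TAC 2. It did not pass the low-count filter and was not tested. Of 10 adipocyte markers 4 were tested, namely Lpl, Fabp4, Plin4 and Pparg, which other cells of the heart also use. Fabp4 was called lower (log2 fold change −0.95, edgeR adjusted p = 0.0148). Lpl, Plin4 and Pparg were at −0.01, −0.04 and 0.07 and were not called (edgeR adjusted p = 0.967, 0.853 and 0.862). The other 6 did not pass the filter, and 4 of these, Adipoq, Plin1, Lep and Retn, were at 0 counts in each library.

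Of the regulators, Serping1 was at 22.5 and 15.5 CPM in the sham libraries and 8.25 and 12.9 CPM in the TAC libraries. Both TAC libraries lay below both sham libraries. TAC against sham gave a log2 fold change of −0.85 ± 0.24 (SE, n = 2 each), with the lowest adjusted p among the members (edgeR adjusted p = 0.0806). With all 4 libraries kept, the adjusted p of Serping1 was 0.0042 with edgeR and no low-count filter and 0.108 with limma on log2(FPKM + 0.1). Cd59a behaved otherwise. It was at 63.4 and 65.6 CPM in the sham libraries and 60.9 and 70.3 CPM in the TAC libraries, so the TAC libraries lay on both sides of the sham libraries. The log2 fold change was 0.02 ± 0.09 (SE, n = 2 each, edgeR adjusted p = 0.892). Under total-count scaling it was −0.16 (edgeR adjusted p = 0.569), with the median of all tested genes moving from −0.01 to −0.20.

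The members were then read together against the whole table. Of 9 members 8 passed the low-count filter, and 0 were called at an edgeR adjusted p under 0.05, where 5.01% of the 12499 tested genes were called and 2.43% were called lower. Without adjustment, p was under 0.05 for 5 of 8, namely Serping1, C3, C1qa, C4b and C1qb, against 27.5% of all genes. DESeq2 called 1 member lower, Serping1, against 3.82% of all genes. With limma on log2(FPKM + 0.1) 1 member was called lower, C3, against 1.02%. The log2 fold change was below 0 for 6 of 8 members and for 50.9% of all tested genes, and the median was −0.85 for the members and −0.01 for all tested genes. In 4 of 8 members (C1qa, C3, C4b and Serping1) both TAC libraries lay below both sham libraries, which held for 30.3% of all genes. Scaled by total counts, 7 of 8 members (not Cfb) lay below 0. Their median log2 fold change over the 8 was then −1.03, against −0.20 for all tested genes.

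**Figure D2:**
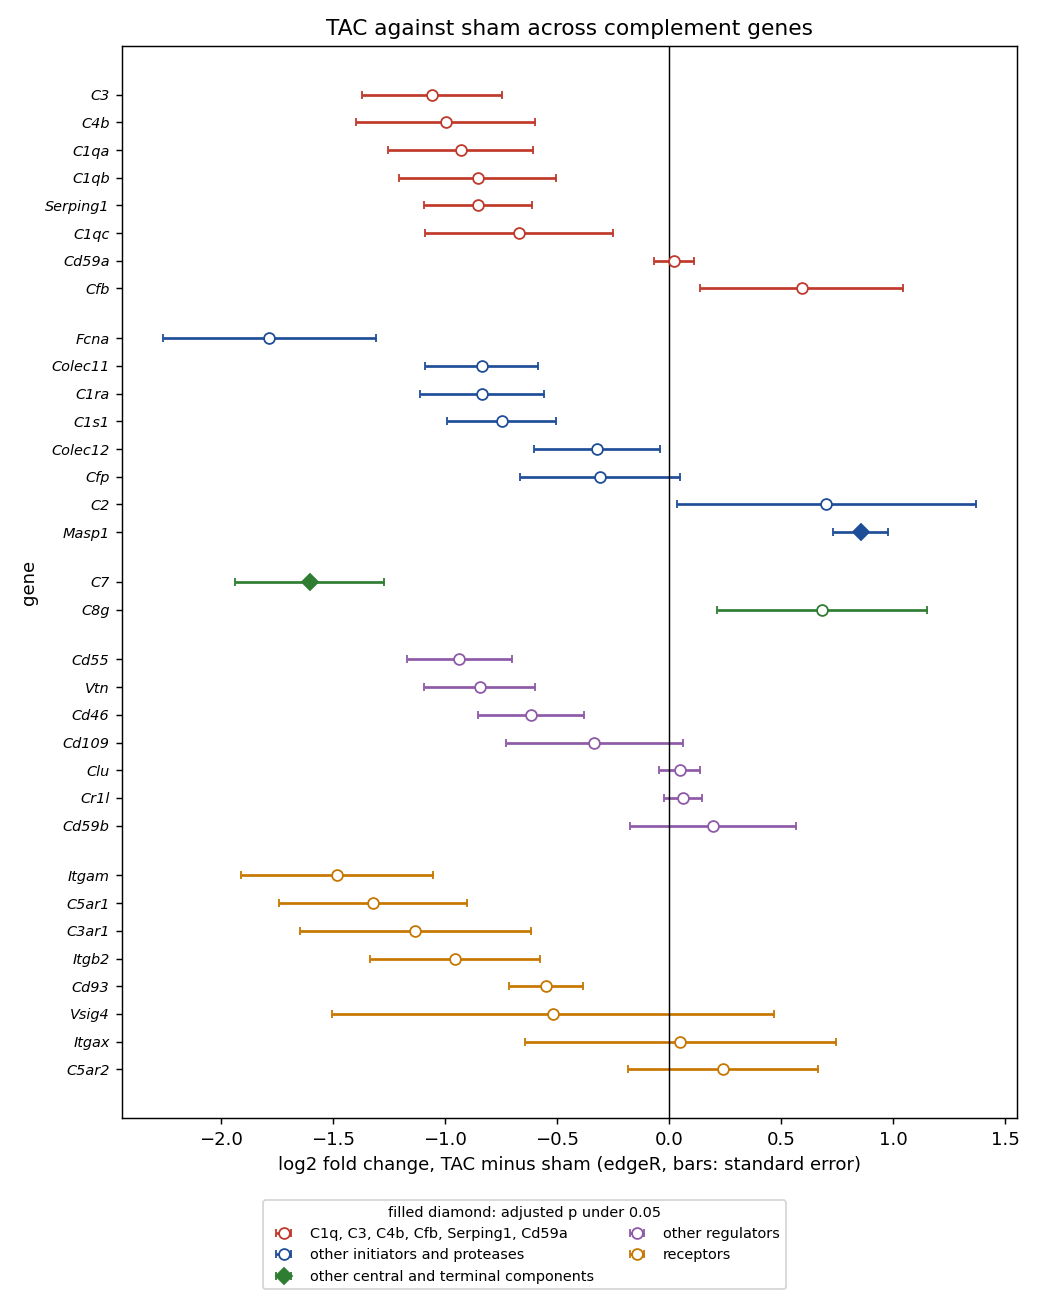
Log2 fold change of TAC against sham (horizontal axis, edgeR, bars show the standard error) for tested complement genes, grouped by role; filled diamonds mark genes under an adjusted p of 0.05. Only Masp1 (0.86) and C7 (−1.61) are filled, and C3, C4b, C1qa, C1qb, Serping1 and C1qc lie between −1.06 and −0.67.

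The calls depended on the filter, the model and single libraries. With no low-count filter 5 members were called lower (C1qa, C1qb, C3, C4b and Serping1), against 6.05% of 16015 genes. Without sham 2 the count was 6, these 5 and C1qc, against 3.54% of genes. Without TAC 2 the same 5 members as with no filter were called, against 6.01%. Without sham 1 and without TAC 1 the count was 0, where 2.37% and 0.916% of genes were called. The log2 fold change of C3 was −0.75 without sham 1, −0.62 without TAC 1, −1.30 without sham 2 and −1.68 without TAC 2. That of C1qc was 0.07 without sham 1 and −1.14 without sham 2, so its direction depended on sham 1. That of Serping1 was −0.56 without sham 1 and −0.56 without TAC 1, against −1.09 without sham 2 and −1.20 without TAC 2.

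**Figure D3:**
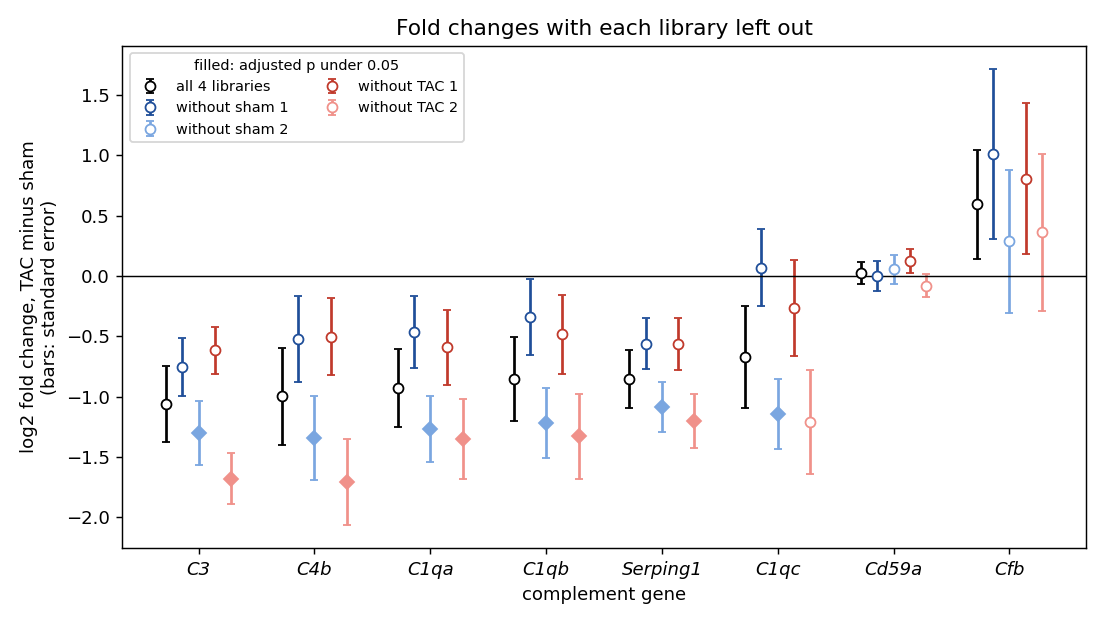
Log2 fold change of TAC against sham (vertical axis, bars show the standard error) for 8 complement genes with all 4 libraries and with each library left out; filled symbols are under an adjusted p of 0.05. For C3, C4b, Serping1 and the C1q chains the values without sham 1 or TAC 1 lie nearest 0, and no filled symbol appears there.

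For the C1q chains, C4b and C3, replicates differed by amounts near the group difference in at least 1 group. On the scale of log2(CPM + 0.5), sham 1 was above sham 2 by 1.14 for C1qc, 0.82 for C1qb, 0.77 for C4b and 0.76 for C1qa. Between these libraries 95% of all tested genes differed by less than 0.57 in either direction. For C3 and Serping1 the same difference was 0.55 and 0.52. TAC 1 was below TAC 2, with a difference of −1.06 for C4b, −1.05 for C3, −0.87 for C1qc, −0.76 for C1qb, −0.68 for C1qa and −0.61 for Serping1, where 95% of genes differed by less than 0.63. The difference between TAC 2 and sham 2 was −0.12 for C1qa, 0.03 for C1qb, 0.44 for C1qc, −0.03 for C4b, −0.31 for C3 and −0.26 for Serping1. That between TAC 1 and sham 1 ran from −1.90 for C3 to −1.39 for Serping1 over these 6 genes. Cd59a differed by −0.05 between the sham libraries and by −0.20 between the TAC libraries.

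Marker genes of other cell types were read in the same libraries. Sham 1 was the highest and TAC 1 the lowest library for 12 of 14 tested macrophage markers (not Fcgr1 and Cx3cr1) and 15 of 15 fibroblast markers. The same held for 14 of 15 endothelial (not Robo4) and 9 of 12 mural markers (not Abcc9, Acta2 and Des). How many of all tested genes followed this order was not counted. The summed mural level, mostly from Des, which cardiomyocytes also express, was 2256 and 2394 CPM in sham and 2425 and 2586 CPM in TAC. Of 15 macrophage markers 14 were tested, and each had a log2 fold change below 0, with a median of −0.87 and 0 called (5 at an unadjusted p under 0.05). Lyz2, Csf1r and F13a1, the most abundant of them per length, were at −0.90, −1.02 and −1.22. Each of the 15 fibroblast markers was below 0, with a median of −0.75 and 4 called lower. Each of the 15 endothelial markers was below 0, with a median of −0.61 and 4 called lower, and 11 of 12 mural markers were below 0, with a median of −0.87 and 2 called lower. The 15 cardiomyocyte markers had a median of 0.32, with 2 called higher. Of all 12499 tested genes, 2.43% were called lower and 322 genes were called higher. An unadjusted p under 0.05 held for 27.5% of them, and 50.9% were below 0. Of 10 neutrophil markers 2 passed the filter, and Ly6g and Camp were at 0 counts in each library.

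The level of each member was divided by the summed level of a marker list in the same library, and the quotient is given as a percent. None of the members is in a marker list, so these are ratios of CPM to a separate sum and not parts of it. The summed C1q chains equalled 23.1% and 23.5% of the macrophage sum in the sham libraries and 26.6% and 26.0% in the TAC libraries, so that the highest value was 1.15 times the lowest. Relative to the fibroblast, endothelial and cardiomyocyte sums, the highest C1q value was 1.38, 1.71 and 3.57 times the lowest. For Serping1 the ratio to the fibroblast sum was 3.77% and 3.77% in sham and 3.38% and 3.91% in TAC, the highest being 1.16 times the lowest. Relative to the macrophage and endothelial sums, its highest value was 1.38 and 1.43 times the lowest. The ratio of C3 to the fibroblast sum was 11.3% and 11.1% in sham and 7.22% and 11.2% in TAC, lowest in TAC 1, and the highest was 1.56 times the lowest. To the macrophage sum it was 46.7% and 63.5% in sham and 45.6% and 51.4% in TAC, the highest being 1.39 times the lowest. For C4b the ratio to the macrophage sum was 6.67% and 7.51% in sham and 5.95% and 7.40% in TAC, and that to the fibroblast sum 1.61% and 1.31% in sham and 0.941% and 1.61% in TAC. Among the macrophage, fibroblast, endothelial and cardiomyocyte sums, Cd59a was steadiest relative to the cardiomyocyte sum, where its highest ratio was 1.20 times the lowest, against 3.59 times for the macrophage sum. The part of other cell types in the differences between sham and TAC was not tested.

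**Figure D4:**
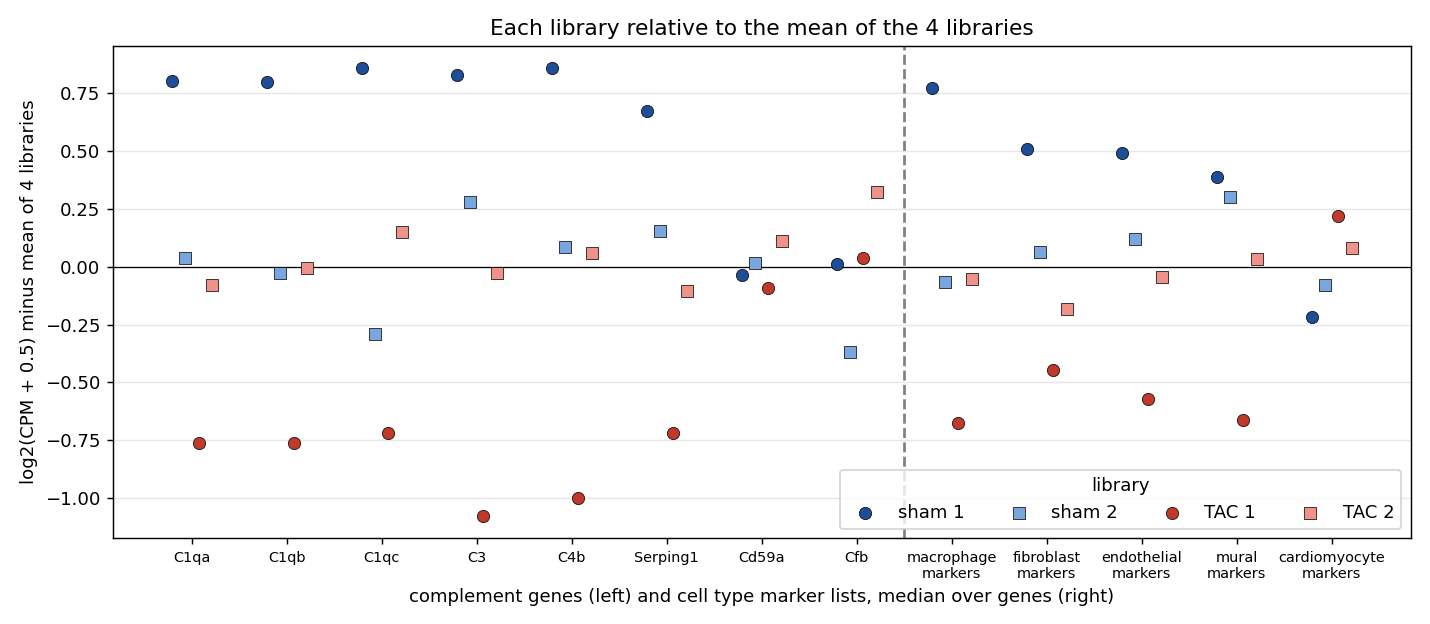
Level in each library relative to the mean of the 4 libraries, as log2(CPM + 0.5), for 8 complement genes (left of the dashed line) and as the median over marker lists of 5 cell types (right). Sham 1 is highest and TAC 1 lowest for the C1q chains, C3, C4b, Serping1 and the macrophage, fibroblast, endothelial and mural lists, while the cardiomyocyte list has sham 1 lowest and TAC 1 highest.

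The genes closest to each member across the 4 libraries were sought among 8485 tested genes averaging 5 CPM or more, by the Euclidean distance of log2(CPM + 0.5) centred on the gene's mean. With 4 libraries this is a description only. Apoe, an apolipoprotein, was nearest to C1qa (distance 0.06), Clec14a to C1qb (0.11) and Vwf, the von Willebrand factor, to C1qc (0.21). Igfbp4 was nearest to C3 (0.11) and Trf, transferrin, to C4b (0.09), followed by the macrophage markers Lyz2 (0.09) and Cd163 (0.15). Rin2 was nearest to Serping1 (0.04), and the collagen gene Col3a1 was also near (0.06). Orai1 was nearest to Cfb (0.06) and Sccpdh to Cd59a (0.02). Lyz2 and Cd163 are in the macrophage list, Col3a1 is in the fibroblast list and Vwf is in the endothelial list, while Apoe, Clec14a, Fat4, Ppp1r10 and Rassf9, the other genes nearest to the C1q chains, are not in the macrophage list.

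The rest of the pathway was read from a list of 40 other complement genes and receptors, of which 39 had a row and 26 were tested. Of the 26, 1 was called higher and 1 lower in TAC, 14 had an unadjusted p under 0.05 and 18 had a log2 fold change below 0. Over all tested genes these shares were 5.01% called in either direction, 27.5% under an unadjusted p of 0.05 and 50.9% below 0. Masp1, a gene of the lectin pathway whose transcripts were not told apart here, was the gene called higher. It was at 9.64 and 8.79 CPM in the sham libraries and 17.5 and 15.8 CPM in the TAC libraries. Both TAC libraries stood well above both sham libraries. Its log2 fold change was 0.86 ± 0.12 (SE, n = 2 each, edgeR adjusted p = 0.0151), and under TMM scaling it was also called without each library in turn. With total-count scaling it was 0.66 and just missed the threshold (edgeR adjusted p = 0.0505), and over 15 alternatives the adjusted p ranged from 0.00030 to 0.301.

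C7, a component of the membrane attack complex, was the gene called lower. It was at 4.55 and 2.68 CPM in the sham libraries and 1.11 and 1.27 CPM in the TAC libraries. The TAC libraries stood close to each other and below both sham libraries. Its log2 fold change was −1.61 ± 0.33 (SE, n = 2 each, edgeR adjusted p = 0.0422, and 0.0018 with no low-count filter). The call was lost without sham 1 (edgeR adjusted p = 0.137) and without TAC 1 (0.116), and with limma on log2(FPKM + 0.1) and log2(FPKM + 1) (adjusted p = 0.0605 and 0.0613). The other late components were nearly silent. C8a, C8b and C9 had 0 counts in each library, Hc (the gene of C5) 1 count in TAC 2 and C6 none in TAC, and C8g was at 0.68 ± 0.47 on counts of 12 to 28 (edgeR adjusted p = 0.374), moving from 0.26 without sham 1 to 1.26 without sham 2.

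Among the other initiators and proteases, 6 of 8 tested genes had a log2 fold change below 0. C1s1, which encodes the C1s protease that partners C1q, was at −0.75 ± 0.24 (edgeR adjusted p = 0.107), and Colec11, a lectin of the lectin pathway, at −0.84 ± 0.25 (edgeR adjusted p = 0.0921). With 1 library left out, C1s1 ran from −0.41 without sham 1 to −1.01 without sham 2, and Colec11 from −0.58 without TAC 1 to −1.13 without TAC 2. Both were called with no low-count filter (edgeR adjusted p = 0.0236 and 0.0378). Masp2, Mbl1 and Mbl2 had 0 counts in each library. Among the other regulators, 5 of 8 tested genes were below 0 and 0 were called (4 at an unadjusted p under 0.05). Clu, the gene of clusterin, which restrains pore assembly like CD59, was the most abundant complement gene of those listed, at 468 FPKM. Its log2 fold change was 0.05 ± 0.09 (edgeR adjusted p = 0.772). Cr1l, the rodent membrane regulator Crry, was at 0.06 ± 0.08 (edgeR adjusted p = 0.677). With total-count scaling both turned below 0, as Cd59a did.

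Of 9 receptor genes 8 were tested, 6 of them with a log2 fold change below 0, and 0 were called (4 at an unadjusted p under 0.05). Cd93, a surface protein of endothelial cells once held to be a C1q receptor, was at −0.55 ± 0.17 (edgeR adjusted p = 0.0912). C5ar1, the C5a receptor of myeloid cells, was at −1.32 ± 0.42 (edgeR adjusted p = 0.102), and Itgb2, the beta chain of complement receptor 3, at −0.96 ± 0.38 (edgeR adjusted p = 0.161). With 1 library left out, Cd93 ran from −0.31 without sham 1 to −0.75 without sham 2, C5ar1 from −0.79 to −1.70 without the same libraries, and Itgb2 from −0.52 without TAC 1 to −1.55 without TAC 2. Cd93 was called with DESeq2 (adjusted p = 0.0181) and C5ar1 with limma on log2(FPKM + 0.1) and log2(FPKM + 1) (adjusted p = 0.0435 and 0.0327), and both were called with no low-count filter.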

How the data were processed

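RNA-seq was compared between 2 sham and 2 TAC libraries, grouped by the sample titles. The authors deposited, for each gene and library, an FPKM value and an expected count, which is an estimate and can be fractional. The header lines do not align with the columns, which were read by position in the order the header names them (FPKM, then count). The submitters' processing notes name Bowtie2 2.2.8, StringTie 1.3.1 and mm10. The use of strand was not given in the sources used here. Expected counts were rounded (of the member values 1 was not whole), passed through filterByExpr, given TMM factors (0.868 for TAC 1 to 1.10 for sham 1) and tested across 12499 genes with edgeR 4.0.16 (glmQLFit, glmQLFTest) in R 4.3.3, with Benjamini-Hochberg adjustment and a threshold of 0.05. The standard error was the log2 fold change divided by the square root of F. An exact permutation test of 2 against 2 cannot go below p = 0.333, so each p rests on the spread pooled over genes. The libraries came from different hearts, and replicates differed far beyond sampling noise (chi-square per degree of freedom 9.19 in sham and 31.3 in TAC). The edgeR steps were run on simulated data with the same spread for every gene (coefficient of variation 10.5%). That run does not bear on genes with a wider spread. Positions came from GENCODE M21 and promoters from RefSeq.

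The members and lists were chosen with earlier results of these data known. Named genes were the 9 members, other complement genes that were called or among the 3 highest per list by FPKM, the 3 nearest genes per member and the 3 highest markers per list, of which the few that bear on the members are printed. A gene that the rule names is not reported here and not drawn, though it stays in the counts. Adipoq, Plin1, Lep, Retn, Ly6g, Camp, Masp2, Mbl1, Mbl2, C8a, C8b, C9, Hc, Fcna, Fcgr1, Cx3cr1, Robo4, Acta2 and Pparg were named after their values were seen. Alternatives were total-count scaling, DESeq2 1.42.0, no filter, the replicate block, each library left out and limma 3.58.1 on log2(FPKM + 0.1) and log2(FPKM + 1).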

Additional observations from a re-analysis of the deposited data

How the results depend on the processing

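With 2 libraries per group, the differences of C3, C4b and the C1q chains were near those between replicates, and Cfb rested on 11.67 to 24 counts a library. With no low-count filter the log2 fold changes now called were −0.93 for C1qa, −0.85 for C1qb, −1.06 for C3, −0.995 for C4b and −0.85 for Serping1. Serping1 was at −0.85 with DESeq2, and C3 at −1.41 and −1.27 with limma on log2(FPKM + 0.1) and log2(FPKM + 1).

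With each library left out in turn, the log2 fold change ranged from −1.35 to −0.46 for C1qa, −1.33 to −0.34 for C1qb, −1.21 to 0.070 for C1qc, −1.68 to −0.62 for C3, −1.71 to −0.50 for C4b and −1.20 to −0.56 for Serping1. Members called lower ranged from 0 to 6, other complement genes called lower from 0 to 8, and all genes from 118 to 776 lower and from 183 to 560 higher.

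Total-count scaling with a library left out was added after the data were seen. Without sham 2 it gave −1.48 for C1qa, −1.42 for C1qb, −1.34 for C1qc, −1.495 for C3, −1.54 for C4b and −1.30 for Serping1, and without TAC 2 it gave −1.66, −1.64, −1.52, −1.99, −2.02 and −1.51. C3 was at −0.87 without sham 1 and −0.70 without TAC 1. Cd59a, at −0.16 with all libraries under this scaling, was at −0.38 without TAC 2. With TMM scaling Cd59a was at 0.02 with all libraries and −0.08 without TAC 2. Without sham 1, sham 2, TAC 1 and TAC 2 in that order, 1, 6, 1 and 7 members and 0, 9, 2 and 12 other complement genes were called lower, and 0 other complement genes were called higher without sham 1 or sham 2. Of all genes, 80, 60, 208 and 236 were called higher in the same order, and 153, 646, 416 and 3261 lower (1.21%, 5.02%, 3.23% and 25.3%).

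Members called lower numbered 1 with DESeq2, 5 with no filter and 1 with either limma fit. Other complement genes called lower numbered 3 with DESeq2, 11 with no filter and 2 with limma on log2(FPKM + 1), namely C5ar1 and Fcna and not C7, and those called higher 0 with total-count scaling and with either limma fit. Over all genes, where 322 were called higher and 304 lower with TMM, total-count scaling called 105 higher and 426 lower, no filter 707 higher and 969 lower, DESeq2 478 lower, and the limma fits 68 and 69 higher and 127 and 145 lower. For all these settings the cause was not tested.

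The replicate block changed no call of a member (C3 at −1.11, Serping1 at −0.86), and called 268 genes higher and 298 lower. Same-numbered libraries deviated in opposite directions (correlation −0.264 across 12499 genes). The crossed pairing, added after the data were seen, called 6 members lower, 12 other complement genes lower, and 968 higher and 1163 lower genes in all, with values of −0.91 for C1qa, −0.84 for C1qb, −0.62 for C1qc, −1.11 for C3, −1.02 for C4b and −0.85 for Serping1.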
